A study of Mus musculus with 10 samples.

Results

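The set described here was 8 genes that mark endothelial cells, the lining cells of blood vessels: Pecam1, Esam, Cdh5, Tie1, Tek, Kdr, Eng and Plvap. They were chosen by name as vessel markers, with no threshold on the values but with earlier results of these data known. Counts of members called beside the share over all genes are therefore descriptive. The genes were looked up by identifier in the libraries of back skin epidermis. All 8 were found in all 10 libraries, among 15987 genes listed in every library, and all 8 were among the 15958 genes tested. RNA was sequenced from epidermal cells of mice in 4 groups. The knockout mice carried Gsdma1KO/KO;Gsdma3fx/fx;K14-Cre, that is, 2 Gsdma1 knockout alleles and 2 floxed Gsdma3 alleles with a Cre whose keratin 14 promoter is active in basal keratinocytes, and the controls were wild type. The dorsal skin was rubbed 2 times a day for 3 days with acetone and olive oil mixed 4 to 1 (AOO) or with water, and was taken on day 5. There were 3 knockout AOO libraries (Mut_AOO), 3 control AOO libraries (Ctrl_AOO), 2 knockout water libraries (Mut_H2O) and 2 control water libraries (Ctrl_H2O). The knockout AOO group was set against the knockout water group and against the control AOO group. The controls were described as wild type, with no mention of floxed alleles or Cre. The labels do not say whether each library came from a separate animal, so p-values describe the spread between libraries, part of which may be technical.

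Endothelial cells line vessels in the dermis, and healthy epidermis has no vessels of its own. Cdh5, Esam and Pecam1 hold neighbouring endothelial cells together, Kdr and the Tie receptors carry the growth and quiescence signals of the vessel wall, Eng assists BMP and TGF-beta receptors, and Plvap forms the diaphragms of fenestrae and caveolae. Several have other sources: Pecam1 is found on platelets and many leukocytes, and Eng and Tek are found on some macrophages. K14-Cre acts in keratinocytes, so endothelial cells are not its target. As written, the genotype ties only the floxed Gsdma3 alleles to Cre, so endothelial cells may carry the Gsdma1 knockout alleles too. The epidermis was lifted off with dispase (2.5 U/mL, 3 hours at 37 °C) and dissociated with 0.25% trypsin-EDTA for 10 minutes, and no sort by surface marker was described.

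The libraries held 15914663 to 21812292 reads. Keratinocyte genes dominated them, and Krt5, the basal keratin, averaged 277196 normalised read counts in knockout AOO and 259619 in knockout water, and 340215 in control AOO and 269678 in control water. The 8 endothelial genes together made up 37.8, 54.6 and 40.7 RPM (reads scaled to a common library total) in knockout AOO, 19.2, 10.6 and 14.1 RPM in control AOO, 8.66 and 20.9 RPM in knockout water and 18.4 and 27.0 RPM in control water. Gsdma3, the floxed target, lay at 0 to 0.898 in knockout AOO against 63.1 to 177 in control AOO, and at 0 to 2.65 in knockout water against 62.5 to 283 in control water. Gsdma, the symbol under which the files list Gsdma1, lay at 260 to 843 in knockout AOO against 535 to 732 in control AOO, and at 170.2 to 170.3 in knockout water against 200 to 527 in control water. Its transcript was thus present in the libraries labelled as knockout and overlapped control AOO. Which part of the gene the knockout allele removes is not given in the sources used here, so this gene-level value is no check of that allele. Treatment went with a Y-linked transcript: Ddx3y lay at 1431 to 2338 in the 6 AOO libraries and at 0 in the 4 water libraries. Treatment and the mice's Y-linked transcripts thus cannot be told apart in either AOO-against-water comparison, nor in the interaction built from both. Hair follicle genes, of the hair shaft and the inner root sheath and called hair shaft genes below, stood apart in 2 libraries. The list without Gata3 summed to 346, 2489 and 899 in knockout AOO and 230, 182.6 and 288 in control AOO. It summed to 267 and 266 in knockout water and 198 and 11030 in control water. Replicate 2 was the highest in knockout AOO and in control water. All 3 knockout AOO libraries lay above those of control AOO and knockout water, as for the endothelial sum. Calls that changed without those 2 libraries are given with and without them.

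The genes lie on 6 chromosomes of the GRCm38 build. Pecam1 spans chromosome 11, 106654217 to 106750628 (minus strand), Esam chromosome 9, 37528078 to 37538319 (plus), Cdh5 chromosome 8, 104101625 to 104144511 (plus), and Plvap chromosome 8, 71497765 to 71511752 (minus). Tie1 spans chromosome 4, 118471191 to 118490061 (minus), Tek chromosome 4, 94739289 to 94874976 (plus), Kdr chromosome 5, 75932827 to 75978458 (minus), and Eng chromosome 2, 32646595 to 32682669 (plus). All are protein-coding, and the values count reads over exons. Exons of Eng overlap exons of Fpgs, whose level was 340 to 541 in knockout AOO and 791 to 996 in knockout water, and 517 to 635 in control AOO and 600 to 910 in control water. The strand setting of the counting is not given in the sources used here, so part of the Eng count may belong to Fpgs, and Eng is uncertain to that extent. Plvap shares its gene body, though no exon, with Gtpbp3, which lay at 208 to 319 over all 4 groups.

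The stretches just upstream of 4 of the 8 genes are shown because most of the set varied together from library to library while Kdr and Tek did not, and both kinds are among the 4. They come from RefSeq on GRCm38.p6, read 5′ to 3′ on the gene's own strand and stop before the annotated exon. Capitals mark 3 motifs searched on both strands. The letters searched for the ETS factors were AGGAAG. Those for the GATA factors were AGATAA. Those for the KLF factors were CACCC.
Eng, chr2:32646345-32646594, plus strand: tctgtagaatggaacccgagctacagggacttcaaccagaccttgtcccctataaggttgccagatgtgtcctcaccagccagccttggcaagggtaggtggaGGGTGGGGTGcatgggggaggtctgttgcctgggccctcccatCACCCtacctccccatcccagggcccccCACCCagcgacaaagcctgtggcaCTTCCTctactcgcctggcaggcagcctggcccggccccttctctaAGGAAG
Tie1, chr4:118490062-118490099, minus strand: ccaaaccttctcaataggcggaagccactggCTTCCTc
Kdr, chr5:75978459-75978705, minus strand: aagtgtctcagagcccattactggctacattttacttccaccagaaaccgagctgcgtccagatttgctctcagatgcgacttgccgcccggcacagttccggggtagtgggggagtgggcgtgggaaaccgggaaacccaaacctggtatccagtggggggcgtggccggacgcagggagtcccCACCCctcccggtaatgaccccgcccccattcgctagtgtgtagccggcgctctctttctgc
Tek, chr4:94739039-94739288, plus strand: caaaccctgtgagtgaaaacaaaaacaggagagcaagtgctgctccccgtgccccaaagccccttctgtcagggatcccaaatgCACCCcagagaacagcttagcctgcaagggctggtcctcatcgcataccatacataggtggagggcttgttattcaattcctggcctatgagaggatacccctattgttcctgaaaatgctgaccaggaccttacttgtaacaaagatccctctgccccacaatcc
Eng held AGGAAG at 2 places and CACCC at 4, while Kdr and Tek each held CACCC at 1 place and no AGGAAG. The 250-base window of Tie1 held AGGAAG at 1 place and CACCC at 2. Only 38 bases of that window are shown, since the other 212 are annotated as exon, and the shown stretch carries the AGGAAG match. AGATAA was in none of the 4 windows. Of 32851 upstream windows of 250 bases, 29.5% held AGGAAG, 9.99% held AGATAA and 52.0% held CACCC, so the motifs are common and a match is a description of letters only. Pecam1, Esam, Cdh5 and Plvap were not among the sequences used here.

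Among the adhesion genes, Pecam1, an immunoglobulin-type protein of the endothelial junction, had 212, 234 and 165 normalised read counts in the knockout AOO libraries. It had 93.6, 35.4 and 45.0 in control AOO, 36.2 and 97.3 in knockout water, and 68.2 and 93.7 in control water. Every knockout AOO library lay above all 7 others, while the other 3 groups overlapped. Esam, a tight-junction adhesion molecule of endothelial cells and platelets, had 32.1, 53.0 and 35.9 in knockout AOO, 8.96, 5.73 and 9.89 in control AOO, 13.2 and 29.2 in knockout water, and 15.4 and 22.5 in control water. The knockout AOO libraries were again the highest 3, and the control AOO libraries the lowest 3. Cdh5, which encodes VE-cadherin, the cadherin of the endothelial adherens junction, had 76.6, 85.3 and 52.8 in knockout AOO, 48.8, 10.5 and 14.3 in control AOO, 0 and 37.7 in knockout water, and 19.2 and 70.3 in control water. Its values ranged widely. Knockout water replicate 1 held 0 reads, with a floor of 3 reads at 2.65 and a 95% exact Poisson upper limit of 3.25. Control water replicate 2 lay among the knockout AOO libraries.

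Among the receptors, Tie1, an orphan receptor kinase that forms complexes with Tek, had 42.4, 64.7 and 34.9 in knockout AOO, 21.9, 11.5 and 16.5 in control AOO, 1.76 and 15.8 in knockout water, and 22.1 and 25.3 in control water. All 3 knockout AOO libraries exceeded the rest, and knockout water replicate 1, with 2 reads, was the lowest. Tek, the angiopoietin receptor Tie2, had 50.7, 63.8 and 46.2 in knockout AOO, 75.7, 43.0 and 38.4 in control AOO, 48.5 and 52.3 in knockout water, and 92.3 and 60.0 in control water. No group of Tek stood above the others in all its libraries, and its highest library was a control water one. Kdr, the main signalling receptor for VEGF-A, was the scarcest member, with 14.5, 19.8 and 17.0 in knockout AOO, 3.98, 7.65 and 14.3 in control AOO, 16.8 and 15.8 in knockout water, and 26.9 and 25.3 in control water. The control water libraries were the highest for Kdr and the control AOO libraries the lowest, the knockout groups lying between and overlapping each other. Each of these Kdr values rests on 4 to 28 reads. Eng, a co-receptor for BMP9 and TGF-beta ligands, had 117, 172 and 99.1 in knockout AOO, 71.7, 39.2 and 65.9 in control AOO, 38.8 and 85.2 in knockout water, and 71.1 and 95.6 in control water. The knockout AOO libraries were the highest 3, but the lowest of them lay close to the higher control water library.

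Plvap, the diaphragm protein of fenestrated and reactive vessels, had 175, 289 and 209 in knockout AOO, 58.8, 41.1 and 56.0 in control AOO, 11.5 and 71.8 in knockout water, and 35.6 and 88.1 in control water. The lowest knockout AOO library lay well above the highest of the other 7. Within the knockout AOO group replicate 2 was the highest library for all 8 genes, and within the knockout water group replicate 1 was the lower one for 7 of 8, Kdr being the exception.

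**Figure D1:**
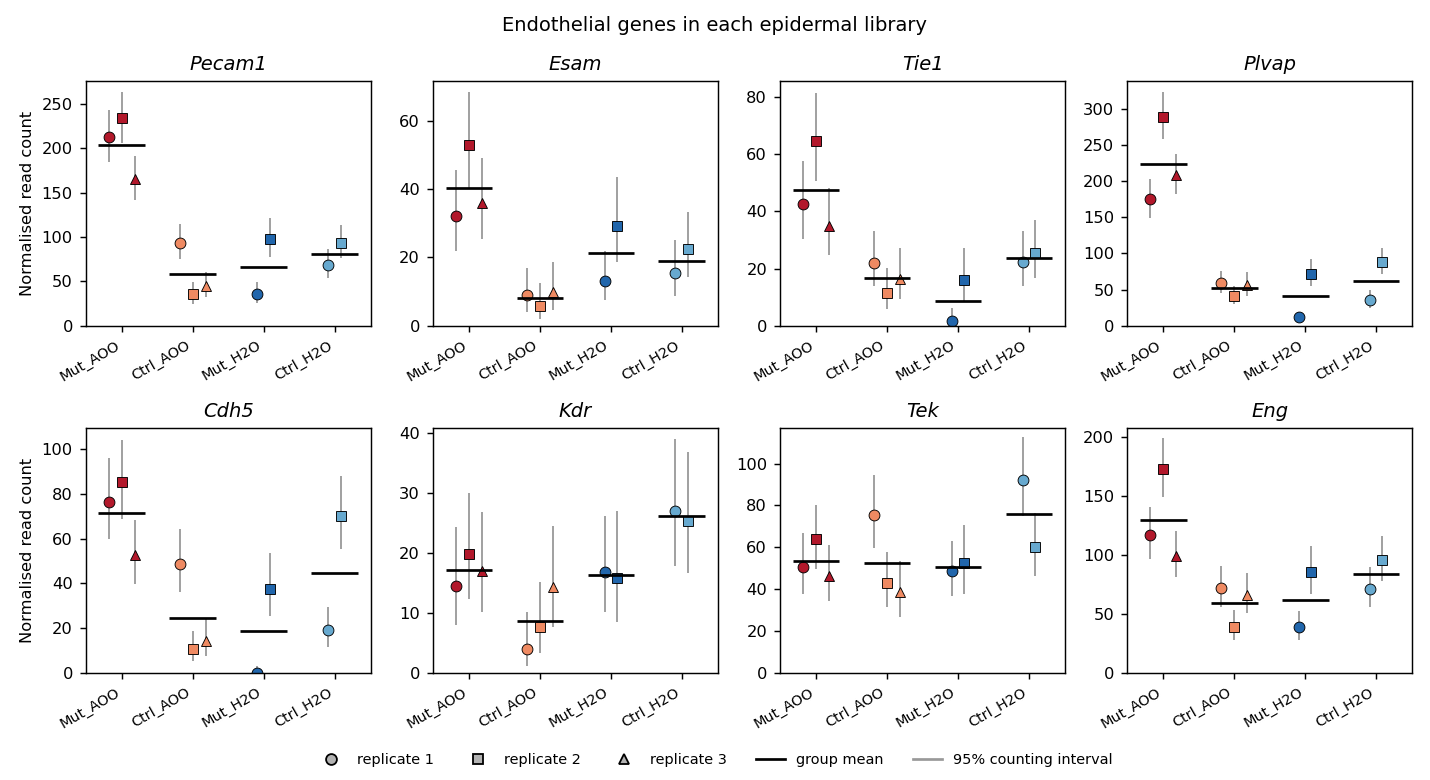
Normalised read count of each of the 8 endothelial genes in every library, by group (Mut, knockout; Ctrl, control; AOO, acetone and olive oil; H2O, water); symbols are replicates, black lines group means and grey bars 95% exact Poisson intervals, which cover counting error only. For 6 genes all 3 knockout AOO libraries lie above both knockout water libraries, while Kdr and Tek overlap between those groups.

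Summed over the 8 genes, the level was 787 ± 171 in knockout AOO (SD, n = 3; 660 to 982), 279 ± 96.1 in control AOO (SD, n = 3; 194 to 383), 286 ± 169 in knockout water (SD, n = 2; 167 to 405) and 416 ± 91.8 in control water (SD, n = 2; 351 to 481). The knockout AOO range lay above all other libraries, whereas the other 3 groups overlapped. In bulk RNA a different number of endothelial cells and a different amount of each transcript per cell cannot be told apart. Knockout water replicate 1 contributed 8.66 RPM (95% exact Poisson interval 7.47 to 9.99) and replicate 2 of that group 20.9 RPM (18.7 to 23.3). The 2 libraries of the group differed by more than their counting error.

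Per kilobase of exon, Plvap was the highest of the 8 in every group, at 113 ± 29.6 normalised read counts per kb in knockout AOO (SD, n = 3), 26.1 ± 4.78 in control AOO (SD, n = 3), 20.9 ± 21.5 in knockout water (SD, n = 2) and 31.1 ± 18.7 in control water (SD, n = 2). That placed it at the 60.8th percentile of all genes per kb in knockout AOO, and at the 31.8th, 29.1st and 34.1st in control AOO, knockout water and control water. Next in knockout AOO came Pecam1 at 32.7 ± 5.62 and Eng at 32.0 ± 9.45 (SD, n = 3 each), which did not differ beyond their spread. Cdh5 (17.0 ± 4.00), Esam (14.1 ± 3.89), Tek (11.4 ± 1.93) and Tie1 (9.63 ± 3.15) followed with overlapping spreads, each over 3 libraries. Kdr, at 1.89 ± 0.292 per kb in knockout AOO (SD, n = 3), was the lowest in 3 groups, and Tie1 was the lowest in knockout water at 1.79 ± 2.02 (SD, n = 2). In the knockout the make-up of the set differed between AOO and water. Plvap gave 43.7, 49.6 and 52.5 percent of the summed per-kb level in knockout AOO, against 15.1 and 33.4 percent in knockout water, while Tek gave 5.34, 4.61 and 4.91 percent against 26.9 and 10.3 percent. In controls Plvap gave 30.2, 39.1 and 39.4 percent under AOO and 21.5 and 34.6 percent under water, and Tek 16.4, 17.3 and 11.4 percent under AOO and 23.5 and 9.93 percent under water. The knockout AOO range of Tek's share lay below those of the other 3 groups.

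**Figure D2:**
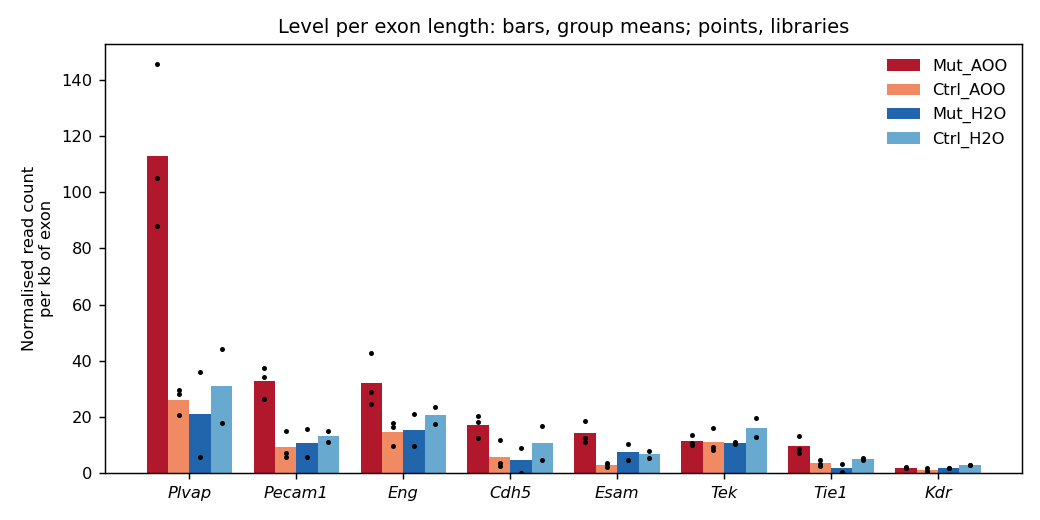
Level per kilobase of exon of the 8 genes, ordered by the knockout AOO mean; bars are group means, points are libraries, and the axis is linear from 0. Plvap is the tallest in each group and Kdr is close to the bottom in all of them.

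The comparison of AOO with water in the knockout was made in epidermis with little or no Gsdma3 transcript. Its AOO libraries carried Ddx3y and its water libraries did not, so treatment cannot be told apart from what goes with that Y-linked transcript. Plvap, Tie1 and Pecam1 rose in knockout AOO against knockout water, and no member fell. Plvap averaged 224 ± 58.8 in knockout AOO (SD, n = 3) and 41.6 ± 42.6 in knockout water (SD, n = 2), a log2 difference of 2.87 ± 0.64 (SE; limma on log2(value + 1), Benjamini-Hochberg adjusted over all genes, adjusted p = 0.0239). Tie1 averaged 47.3 ± 15.5 in knockout AOO (SD, n = 3) and 8.79 ± 9.94 in knockout water (SD, n = 2), a log2 difference of 2.78 ± 0.67 (SE; limma adjusted p = 0.0292). Pecam1 averaged 204 ± 35.0 in knockout AOO (SD, n = 3) and 66.7 ± 43.2 in knockout water (SD, n = 2), a log2 difference of 1.74 ± 0.48 (SE; limma adjusted p = 0.0406). So 3 of 8 members were called higher, where 6.74% of all genes were called higher, 6.69% lower and 13.4% in either direction. All 8 had a positive fitted difference, as did 50.5% of all genes, and 5 had an unadjusted p under 0.05 with knockout AOO higher, as did 17.2% (35.0% in either direction). DESeq2 called the same 3 members higher, where it called 12.0% of genes higher and 23.2% in either direction, and edgeR called 2, Plvap and Tie1, where it called 12.1% in either direction. The libraries of the 2 groups did not overlap for 6 of 8 members, with knockout AOO higher, as they did for 28.8% of all genes. The median log2 difference was 1.43 over the 8 members and 0.01 over all genes tested.

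The 5 members that missed the threshold in that comparison fell into 2 kinds. Cdh5 had a log2 difference of 3.52 (95% interval 0.76 to 6.27, limma adjusted p = 0.0773), which depends on how the library with 0 reads is treated. It was 2.36 with a pseudocount of 5 and 4.01 with one of 0.5. The count models gave less, 2.02 with edgeR (adjusted p = 0.22) and 1.93 with DESeq2 (adjusted p = 0.322). For Eng the log2 difference was 1.12 (0.21 to 2.03, limma adjusted p = 0.0861) and for Esam 0.96 (-0.07 to 2.0, limma adjusted p = 0.169), both with no overlap between the groups. Kdr (0.05, interval -1.04 to 1.15) and Tek (0.07, interval -0.72 to 0.87) had estimates close to 0, and their intervals leave room for a change of about 1 log2 unit either way. These calls depended on several single libraries. Without knockout water replicate 1, which leaves a single knockout water library, the log2 difference shrank to 1.60 for Plvap, 1.47 for Tie1 and 1.04 for Pecam1. Without knockout AOO replicate 2 no member was called, and 424 of all genes were, against 2143 with all libraries. The limma adjusted p was then 0.078 for Plvap, 0.0943 for Tie1 and 0.116 for Pecam1. Without knockout AOO replicate 3 no member was called either, and 239 of all genes were. The limma adjusted p was then 0.0705, 0.0705 and 0.0854 for the same genes. Pecam1 also missed the threshold without knockout AOO replicate 1 (limma adjusted p = 0.058), knockout water replicate 2 (0.109) or control AOO replicate 2 (0.0552). Cdh5 passed without knockout water replicate 2, which leaves the library with 0 reads as the sole knockout water sample (log2 difference 6.15, limma adjusted p = 0.0374). Without the 2 libraries high in hair shaft genes the log2 difference was 2.67 for Plvap, 2.54 for Tie1 and 1.64 for Pecam1 (limma adjusted p = 0.0578, 0.0824 and 0.103).

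In wild-type mice no member was called. All 8 members had a lower fitted level in control AOO than in control water, as 49.9% of all genes did, and 0 passed the limma test, where 0.0627% of all genes did. The median log2 difference was -0.57 over the members and 0.00 over all genes. Kdr, at 8.64 ± 5.22 in control AOO (SD, n = 3) and 26.1 ± 1.14 in control water (SD, n = 2), had the largest negative estimate, -1.64 (interval -2.73 to -0.54, limma adjusted p = 0.246). Esam averaged 8.19 ± 2.18 in control AOO (SD, n = 3) and 18.9 ± 5.03 in control water (SD, n = 2), a log2 difference of -1.12 (interval -2.16 to -0.09, limma adjusted p = 0.351). Kdr, Esam and Tie1 had no overlap between the 2 groups, with control AOO lower, as did 12.0% of all genes. At an unadjusted p under 0.05 Kdr and Esam were lower in control AOO, as were 7.94% of all genes (12.9% in either direction). DESeq2, which called 2.36% of genes, and edgeR, which called 0.0439%, called no member. The intervals of Pecam1 (-1.64 to 0.47), Plvap (-1.54 to 1.29), Eng (-1.43 to 0.38), Tie1 (-2.01 to 0.95), Tek (-1.36 to 0.23) and Cdh5 (-3.63 to 1.87) all included 0. Without control water replicate 2 the estimate changed sign for Plvap (0.52) and Cdh5 (0.030), and without control AOO replicate 2 it did so for Plvap (0.034).

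The comparison of genotypes under AOO is the one in which both groups carried Ddx3y. Every member had a higher fitted level in knockout AOO than in control AOO, as 52.1% of all genes did, with a median log2 difference of 1.62 over the members and 0.02 over all genes. None of the 8 passed the limma test, nor did any other gene (0.0% of 15958). At an unadjusted p under 0.05, 6 of 8 members were higher, where 5.47% of all genes were, and 1908 genes (12.0%) passed at that level in either direction. In 7 of 8 members, all but Tek, the 3 knockout AOO libraries lay above the 3 control AOO libraries, as in 8.55% of all genes. Esam averaged 40.3 ± 11.1 in knockout AOO and 8.19 ± 2.18 in control AOO (SD, n = 3 each), a log2 difference of 2.16 ± 0.42 (SE; limma adjusted p = 0.301). Plvap averaged 224 ± 58.8 in knockout AOO and 52.0 ± 9.50 in control AOO (SD, n = 3 each), a log2 difference of 2.07 ± 0.57 (SE; limma adjusted p = 0.314), and Pecam1 had a log2 difference of 1.90 ± 0.43 (SE; limma adjusted p = 0.314). Cdh5 (1.79, interval -0.68 to 4.25), Tie1 (1.45, 0.13 to 2.77), Eng (1.13, 0.32 to 1.94) and Kdr (1.04, 0.07 to 2.02) had smaller estimates, and Tek had 0.08 (-0.63 to 0.80).

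The count models on recovered reads differed from limma in this comparison. DESeq2 called Esam, Pecam1 and Plvap higher in knockout AOO (adjusted p = 0.0058, 0.00926 and 0.0152), where it called 0.673% of genes higher and 1.17% in either direction. The edgeR quasi-likelihood test called no member and no other gene (adjusted p = 0.321 for Esam and Pecam1 and 0.325 for Plvap). Leaving out any 1 library kept the sign of 7 members, Tek being the exception, and the log2 difference of Esam stayed between 1.95 and 2.31, that of Plvap between 1.87 and 2.24 and that of Pecam1 between 1.62 and 2.31. Without the 2 libraries high in hair shaft genes 0 members were called and Tek had -0.053.

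Under water no member was called between the genotypes. Of the 8 members, 7 had a lower fitted level in knockout water than in control water, as 51.0% of all genes did, and 0 passed the limma test, as did 0.0% of all genes. At an unadjusted p under 0.05, where 3.22% of all genes were lower and 795 genes (4.98%) passed in either direction, Tie1 was the only member (log2 difference -1.85, interval -3.47 to -0.24, limma adjusted p = 0.963). It averaged 8.79 ± 9.94 in knockout water and 23.7 ± 2.26 in control water (SD, n = 2 each). DESeq2 called 6 genes (0.0376%) and edgeR 0, none of them members. Cdh5 had -2.61 (interval -5.63 to 0.41), Plvap -0.92 (-2.47 to 0.63) and Pecam1 -0.42 (-1.58 to 0.73), and Esam alone was positive, at 0.08 (-1.05 to 1.21). Tie1, Kdr and Tek did not overlap between the groups, with knockout water lower, as in 17.8% of all genes. Without knockout water replicate 1 the estimate became positive for Pecam1 (0.28), Plvap (0.35), Cdh5 (0.029) and Eng (0.046), and Esam became negative without knockout water replicate 2 (-0.46) or control water replicate 1 (-0.19).

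The interaction was tested as the AOO-minus-water difference in knockout less that in control. Since every AOO library and no water library carried Ddx3y, it cannot tell treatment from what goes with that Y-linked transcript. All 8 estimates were positive, as were 52.1% of all genes, from 0.64 for Tek (interval -0.49 to 1.76) to 4.40 for Cdh5 (0.50 to 8.29). The others were Kdr 1.69, Eng 1.64, Esam 2.08, Pecam1 2.33, Plvap 3.00 and Tie1 3.31, and their intervals lay above 0. None passed after adjustment (limma adjusted p between 0.356 and 0.585), and no gene of the 15958 did (0.0%). At an unadjusted p under 0.05, 7 of 8 members were positive, where 6.15% of all genes were and 1897 genes (11.9%) passed in either direction. Positive interaction estimates were also common among markers of several other cell types, given below. DESeq2 called 196 genes (1.45%) and edgeR 0, none of them members. These contrasts share libraries with those above, so the estimates are shown beside them and are not further evidence.

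**Figure D3:**
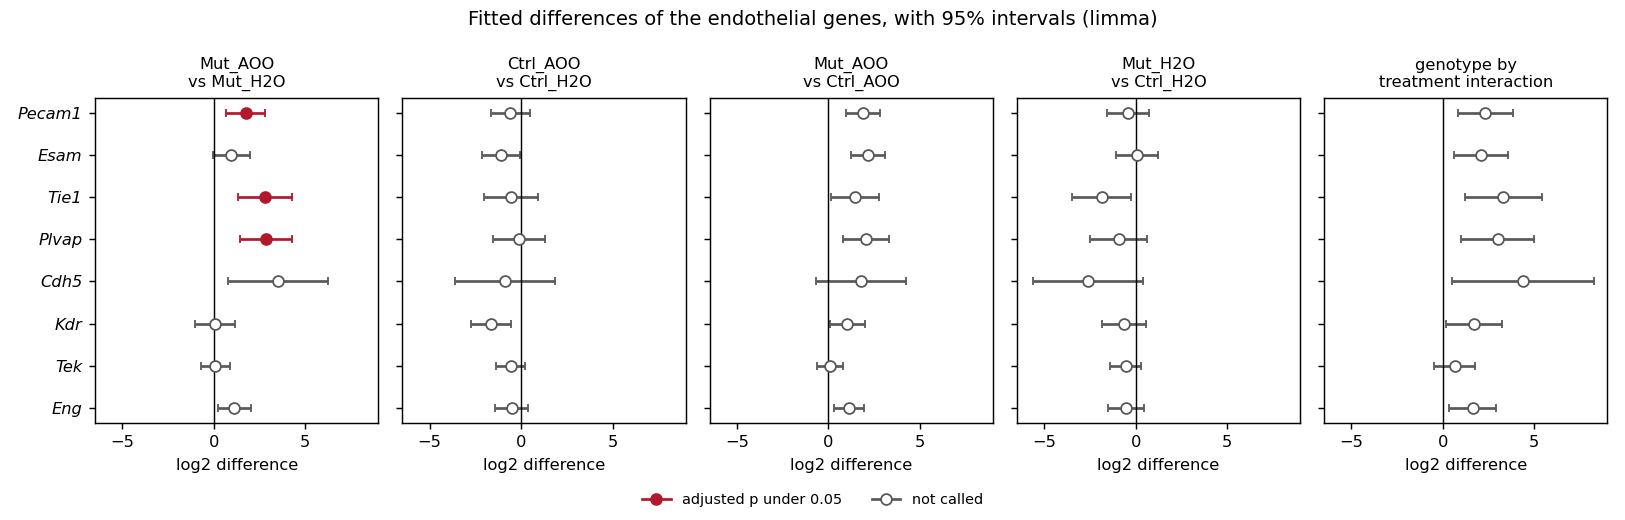
Fitted log2 differences of the 8 genes in the 4 comparisons and their interaction, from limma on log2(value + 1), with 95% intervals; filled red points have an adjusted p under 0.05 and open grey points do not. The 3 filled points, for Pecam1, Tie1 and Plvap, are all in the knockout AOO against knockout water panel, and the intervals of Tek include 0 in all 5 panels.

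The members varied together in part. Over the 10 libraries the 15 pairs among Pecam1, Esam, Tie1, Plvap, Cdh5 and Eng had Pearson's r between 0.55 and 0.94 with a median of 0.86, on log2(value + 1). With the group means subtracted those 15 pairs had r between 0.76 and 0.95 with a median of 0.87, so libraries of the same group also differed in these 6 genes jointly. The 13 pairs that include Kdr or Tek had r between -0.0049 and 0.57 with a median of 0.19, and -0.63 to 0.53 with a median of 0.01 after the group means were subtracted. Kdr and Tek are the members with estimates near 0 between the knockout groups. The division into 6 and 2 was made after these values were seen, all pairs rest on the same 10 libraries, and no test was made.

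**Figure D4:**
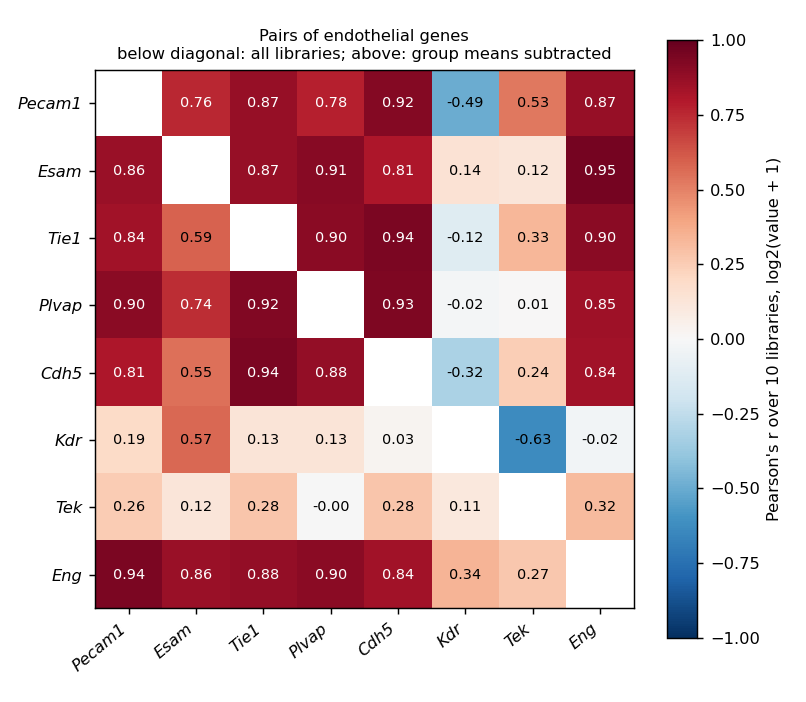
Pearson's r of log2(value + 1) for each pair of the 8 genes over 10 libraries, below the diagonal for all libraries and above it with group means subtracted; red is positive, blue negative, and values are printed in the cells. Most cells of Kdr and Tek are pale or blue, while those among the other 6 genes are red, at 0.55 or more.

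Among the 14463 genes that averaged at least 20 in some group, those whose log2 level over the 10 libraries was most like the mean of the 8 were Mphosph6 (Pearson's r = 0.96), Vwf (0.95), Adgrf5 (0.95), Zmat1 (0.93), Ffar4 (0.93), Scimp (0.93), Cytl1 (0.92) and Mmrn2 (0.92). Vwf encodes the clotting factor stored in endothelial cells and platelets, Adgrf5 an adhesion receptor of lung epithelium and endothelium, and Mmrn2 a matrix protein of vessels. Vwf averaged 404 in knockout AOO, 108 in control AOO, 127 in knockout water and 145 in control water. A like profile is no like size: Mphosph6 averaged 276 in knockout AOO, 231 in control AOO, 225 in knockout water and 244 in control water. After subtracting group means the closest were Cbfa2t3 (0.97), Ptprb (0.95), Gipc2 (0.94), Vwf (0.94), Gpaa1 (0.94), Aqp1 (0.93), Gprc5a (0.93) and Galc (0.92). Ptprb is the endothelial phosphatase that acts on Tek and VE-cadherin, and Aqp1 is a water channel of endothelium and red blood cells. These likenesses are descriptions over 10 libraries, with genes of the same libraries on both sides.

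Other endothelial genes were taken from a list of 34, of which 25 were listed in every library and tested. In knockout AOO against knockout water, 4 of 25 were called higher and 0 lower, where 6.74% of all genes were called higher, 21 of 25 were positive, where 50.5% were, and the median log2 difference was 1.20. The 4 were Sox7, a transcription factor of vessel development that averaged 1404 in knockout AOO and 603 in knockout water (log2 difference 1.20 ± 0.23, SE; limma adjusted p = 0.0169), Egfl7, a secreted endothelial factor (2.38 ± 0.53, limma adjusted p = 0.0235), Ptprb (2.83 ± 0.72, limma adjusted p = 0.0337) and Vwf (1.98, limma adjusted p = 0.0439), the last named after its value was seen. In controls Sox7 averaged 877 ± 175 in control AOO (SD, n = 3) and 443 ± 38.3 in control water (SD, n = 2; log2 difference 0.96, limma adjusted p = 0.176, DESeq2 adjusted p = 0.0139), whereas all 8 members had negative estimates there. Egfl7 averaged 51.3 ± 14.7 in knockout AOO (SD, n = 3) and 8.84 ± 1.27 in knockout water (SD, n = 2), with 13.4 ± 6.40 in control AOO (SD, n = 3) and 13.2 ± 7.81 in control water (SD, n = 2). The number called in this list was 0 without knockout water replicate 1, knockout AOO replicate 2 or knockout AOO replicate 3, and 9 when the 2 groups were fitted alone. Without the 2 libraries high in hair shaft genes it was 1 of 24, Sox7 (limma adjusted p = 0.0435), and Egfl7 had 2.16 (limma adjusted p = 0.0536). Between genotypes under AOO all 25 were positive with a median of 1.21, 0 were called by limma, 14 had an unadjusted p under 0.05 with knockout AOO higher, where 5.47% of all genes did, and the lowest p-values belonged to Egfl7 (1.94), Vwf (1.97) and Nos3, the endothelial nitric oxide synthase (1.81), each with a limma adjusted p of 0.314. DESeq2 called 3 of the 25 higher there, where it called 0.673% of genes higher. Without Palmd, Cd34 and Sox7, the most abundant of the list and left out after their values were seen, the other 22 genes summed to 1345 to 1727 in knockout AOO, 489 to 695 in control AOO, 536 to 862 in knockout water and 688 to 1204 in control water.

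Of 3 lymphatic endothelial genes tested, Lyve1, a hyaluronan receptor of lymphatic vessels and some macrophages, rose in knockout AOO against knockout water (47.3 ± 16.5, SD, n = 3, and 4.36 ± 2.43, SD, n = 2; log2 difference 3.19 ± 0.67, SE; limma adjusted p = 0.0212). It was the only one of the 3 called, where 6.74% of all genes were called higher. Lyve1 also averaged more in control AOO (22.6 ± 15.3, SD, n = 3) than in control water (4.71 ± 3.94, SD, n = 2; log2 difference 2.03, limma adjusted p = 0.271). Every endothelial member had a negative estimate in that control comparison. Prox1, the transcription factor that defines lymphatic identity, averaged 9.62 in knockout AOO and 9.17 in knockout water (limma adjusted p = 0.955), and Pdpn, which keratinocytes also make, was not called (limma adjusted p = 0.762).

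Lists of ligands, partner receptors, targets and junction partners of the members held 1 gene that rose in knockout AOO against knockout water, Ptprb, and 7 that fell, in a comparison where 6.74% of all genes were called higher and 6.69% lower. Counts of 1 or 2 in lists of 9 to 13 are not read as results about these pathways. Of 13 ligands of the VEGF, angiopoietin and TGF-beta receptors, 2 fell and 0 rose: Sema3f, a neuropilin ligand (log2 difference -0.55, limma adjusted p = 0.044), and Tgfb2 (-0.97, limma adjusted p = 0.0445). In control AOO against control water Tgfb2 had -1.04 (limma adjusted p = 0.208) and Sema3f 0.12 (limma adjusted p = 0.784). Thbs1, an inhibitor of angiogenesis, had -1.71 (limma adjusted p = 0.0548). Vegfa, the ligand of Kdr, named outside the rule, averaged 2521 in knockout AOO and 3140 in knockout water, and 2684 in control AOO and 3354 in control water, with no call in the knockout (log2 difference -0.41, limma adjusted p = 0.449). The angiopoietin genes Angpt1 and Angpt4 were listed in the water libraries only. The AOO libraries listed fewer genes, so the levels of these genes under AOO are not known. Of 9 co-receptors and partner receptors, Ptprb rose and Bmpr2, a BMP receptor that averaged 2607 in knockout AOO and 3943 in knockout water, fell (log2 difference -0.60, limma adjusted p = 0.0305). Of 12 target genes of these pathways, Id1 (-0.64, limma adjusted p = 0.0486) and Rcan1 (-0.66, limma adjusted p = 0.0446) fell and 0 rose, while Nos3 had 1.67 (limma adjusted p = 0.0581). Of 9 junction partners, F11r (-1.05, limma adjusted p = 0.0232) and Tjp1 (-0.89, limma adjusted p = 0.034) fell and 0 rose. F11r averaged 3659 in knockout AOO and 7412 in knockout water, levels far above those of the 8 members. In the other 3 comparisons and the interaction limma called 0 genes of these 4 lists.

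Markers of blood and of other dermal cells are given beside the endothelial result. All 5 red blood cell genes tested rose in knockout AOO against knockout water, with a median log2 difference of 3.46, and the summed level was 14407 to 27549 in knockout AOO, 4427 to 13396 in control AOO, 1176 to 2544 in knockout water and 3321 to 6497 in control water. Alas2, the first enzyme of heme synthesis in red cells, averaged 247 ± 57.3 in knockout AOO (SD, n = 3) and 23.0 ± 0.128 in knockout water (SD, n = 2; log2 difference 3.34 ± 0.36, SE; limma adjusted p = 0.00253). The red cell sum of knockout AOO lay above that of every other library, as the endothelial sum did. Unlike the endothelial genes, all 5 red cell genes also had a higher fitted level in control AOO than in control water (median 1.00, 0 called). Of 10 leukocyte genes 1 rose in knockout AOO against knockout water, near the 6.74% of all genes called higher: the macrophage receptor Mrc1, at a mean of 59.8 against 6.57 (limma adjusted p = 0.0121), and the summed level was 4048 to 4909 in knockout AOO, 2553 to 4907 in control AOO, 3977 to 4205 in knockout water and 5918 to 8559 in control water. Of 8 Langerhans and dendritic cell genes, 1 rose in that comparison, also near the share over all genes, Mfge8 (log2 difference 1.81, limma adjusted p = 0.0193), and the summed level was 22981 to 39964 in knockout AOO, 10414 to 14307 in control AOO, 17611 to 18835 in knockout water and 13117 to 37849 in control water. Of 3 platelet genes Pf4 was called higher (log2 difference 2.43, limma adjusted p = 0.0374), while Gp1ba and Itga2b had -0.70 and -0.12 (limma adjusted p = 0.473 and 0.747). The platelet sum was 121 to 142 in knockout AOO and 137 to 139 in knockout water, so those groups overlapped.

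Keratinocyte genes were called in both directions, in a comparison where 6.74% of all genes were called higher and 6.69% lower. Of 10 such genes, Krt1, a keratin of differentiating cells, rose in knockout AOO against knockout water (log2 difference 1.92, limma adjusted p = 0.0164), and Krt15, a basal keratin, and Trp63, the transcription factor of basal epidermal cells, fell (-0.91 and -0.99, limma adjusted p = 0.0219 and 0.029). The median over the 10 was -0.36. In control AOO against control water, where every endothelial member had a negative estimate, Krt1 had 1.61 (limma adjusted p = 0.164). Between genotypes under AOO 6 of 10 were lower in knockout AOO at an unadjusted p under 0.05, where 12.0% of all genes passed in either direction. There 0 were called by limma, and the median was -0.45.

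Between genotypes under AOO, genes of immune cells and of the hair shaft had positive estimates beside the endothelial genes. All 10 leukocyte genes and all 8 Langerhans and dendritic cell genes had a positive fitted difference, with medians of 0.70 and 1.18 on the log2 scale, and limma called 0 of them. Unadjusted p-values were under 0.05 with knockout AOO higher for 5 of 10 and 6 of 8, where 5.47% of all genes passed. Csf1r, the macrophage and Langerhans cell growth factor receptor, averaged 893 ± 220 in knockout AOO and 340 ± 51.8 in control AOO (SD, n = 3 each; limma adjusted p = 0.301). DESeq2 called 1 leukocyte gene and 5 Langerhans and dendritic cell genes higher there, where it called 0.673% of genes higher. Hair shaft genes had a larger median than the endothelial genes, 2.57 over 9 genes, of which 8 were positive, 4 had no overlap between the groups and 0 were called by limma or DESeq2. Without the 2 libraries high in hair shaft genes the medians were 1.58 for the hair shaft list and 1.42 for the 8 endothelial genes. In the interaction the hair shaft median was 4.31, and DESeq2 called 6 of the 9, where it called 1.45% of genes in either direction. All 10 leukocyte, 8 Langerhans and dendritic cell, 5 red blood cell and 8 muscle genes were positive in the interaction. Of these, 6, 7, 5 and 4 had an unadjusted p under 0.05, where 6.15% of all genes were positive at that level. DESeq2 called 4, 3, 4 and 0 of them. Of 10 keratinocyte genes, 1 was positive. Between genotypes under AOO the 5 red blood cell genes had a median of 0.99 with 0 called by limma or DESeq2. Muscle and melanocyte genes had medians of 0.18 and 0.86 with 0 called by either.

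Genes of the cells that surround vessels were not called higher. Of 8 mural genes 0 rose and Cspg4, a proteoglycan of pericytes and other cells, fell in knockout AOO against knockout water (log2 difference -1.0, limma adjusted p = 0.012). Cspg4 had -1.05 in control AOO against control water (limma adjusted p = 0.0562). Of the 8 mural genes 6 were positive between genotypes under AOO and 6 in the interaction, with medians of 0.27 and 0.79. In each, 2 were positive at an unadjusted limma p under 0.05, where 5.47% and 6.15% of all genes were, and limma called 0. The other 6 mural genes, without Cspg4 and Notch3, the most abundant of the list and left out after their values were seen, summed to 70.8 to 254 in knockout AOO, 76.5 to 169 in control AOO, 136 to 139 in knockout water and 229 to 255 in control water, so the knockout AOO range spanned that of knockout water. Of the defining pericyte genes, Rgs5 was listed in the water libraries only, at a mean of 2.98 in knockout water and 6.13 in control water. The AOO libraries listed fewer genes, so the level of Rgs5 under AOO is not known. Of 12 fibroblast genes 0 rose and Lum, a collagen-binding proteoglycan, fell (log2 difference -3.02, limma adjusted p = 0.0379), and the sum was 4831 to 10161 in knockout AOO, 6377 to 10153 in control AOO, 9233 to 12116 in knockout water and 6070 to 16691 in control water. Without the 2 libraries high in hair shaft genes, the limma calls of all 5 red blood cell genes, Lyve1, Mrc1, Mfge8, Cspg4, Tjp1, Krt1 and Krt15 in knockout AOO against knockout water held. Those of Pf4 (adjusted p = 0.0542), Lum (0.0572), Trp63 (0.0623), F11r (0.053), Bmpr2 (0.0507), Ptprb (0.0785), Id1 (0.0691), Rcan1 (0.0926), Sema3f (0.104), Tgfb2 (0.0955) and Vwf (0.0953) did not, all with the same sign. The part of red blood cells, leukocytes, Langerhans cells, keratinocytes and hair shaft in the endothelial result was not tested.

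**Figure D5:**
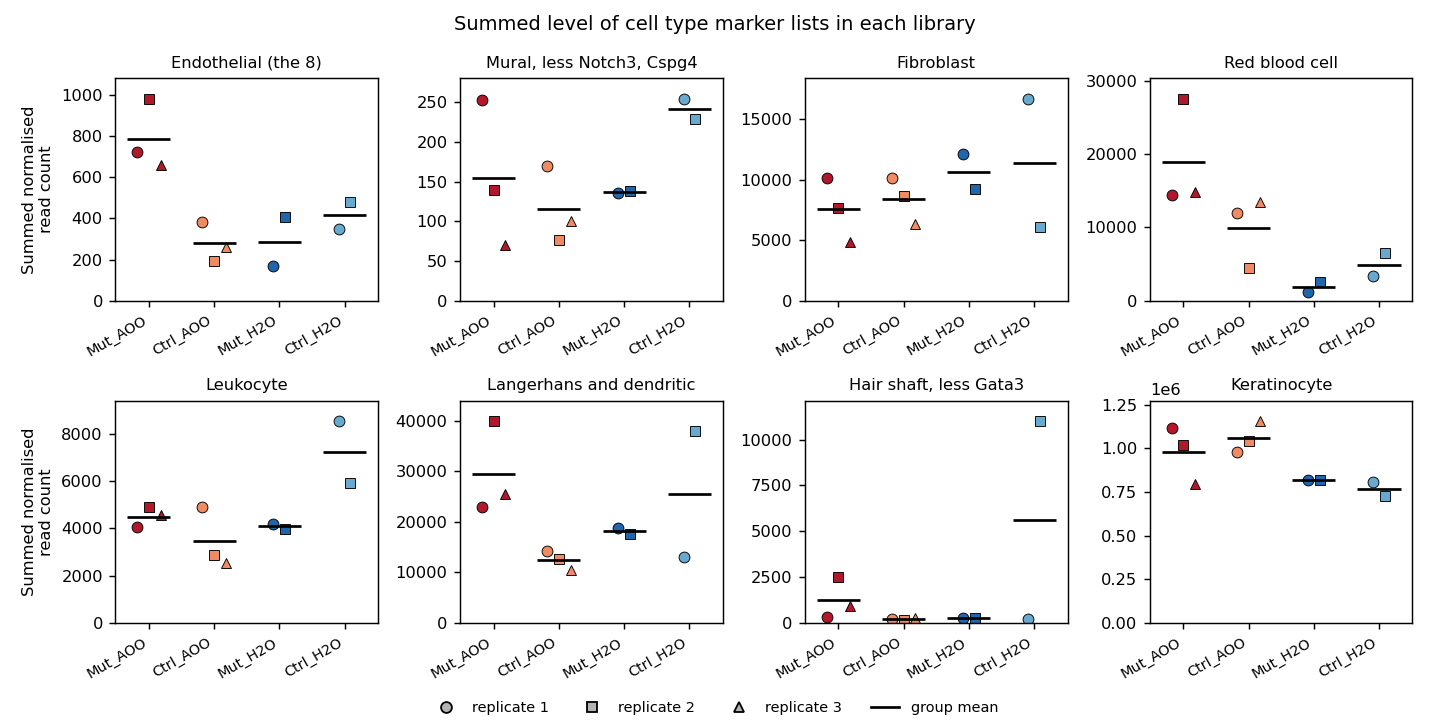
Summed normalised read count of 8 marker lists in every library, by group; symbols are replicates, black lines group means, and each panel has its own linear axis from 0. The endothelial and red blood cell sums are highest in the 3 knockout AOO libraries, and the mural and fibroblast sums are not. The hair shaft sum, which includes inner root sheath genes, is highest in control water replicate 2.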

How the data were processed

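Epidermal RNA from 10 mouse libraries was used, grouped by genotype and treatment as labelled. The authors deposited normalized read values per gene, 1 file per library, a signal from which whole reads were recovered by dividing by each library's step (100% of values lay within 0.1 read of a whole number). The submitters' processing notes name DESeq2 1.26.0, featureCounts 2.0.0, Trimmomatic 0.38 and the build GRCm38. Not given in the sources used here were which aligner, gene annotation release and strand setting had been used. All 17983 identifiers matched GENCODE. Each library listed 16557 genes in knockout AOO, 16014 in control AOO, 17983 in knockout water and 17916 in control water. Why these lists differ is not given in the sources used here, so an unlisted gene is not shown to be absent.

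Genes were kept that all 10 files listed and that reached 10 in 2 or more libraries after median-of-ratios scaling (factors 0.995 to 1.00), and normalised read counts are on that scale. The tested scale was log2(value + 1). The added 1 lowers the fold change of low values, while a mean of logs can lie above the ratio of group means. For Cdh5 in knockout AOO against knockout water the fitted fold was 11.4 and the ratio of means 3.80. limma 3.58.1 in R 4.3.3 (lmFit, contrasts.fit, eBayes with a trend) fitted 4 group means to all libraries, two-sided, and calls needed an adjusted p under 0.05 (Benjamini-Hochberg over all genes tested). edgeR 4.0.16 and DESeq2 1.42.0 were run on the recovered reads as alternatives. Scripts were tested on simulated data. Intervals on counts are 95% exact Poisson intervals and floors are 3 reads, and both cover counting error only, since PCR reads are not independent molecules.

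All 8 members were named in every library. From each other list, genes were named by the rule of up to 3 lowest limma p-values in a contrast with a group mean of 10 or more, and likeness by the 8 highest r. The members and lists were chosen with earlier results of these data known.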

Additional observations from a re-analysis of the deposited data

How the results depend on the processing

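Among alternatives, 3 of 8 members called in knockout AOO against knockout water became 0 without the 2 libraries high in hair shaft genes, an alternative chosen after seeing the data, and 2 with edgeR. Plvap and Tie1 were called in 17 of 21 alternatives each and Pecam1 in 13 of 21 (edgeR adjusted p = 0.0527). Leaving out 1 library gave 0 to 3 members called there and 0 in every other comparison. In the comparison of genotypes under AOO, DESeq2 called 3 members, against 0 by limma.

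The number of all genes called was less stable. Fitted on the compared groups alone it was 3830 in knockout AOO against knockout water (2143 with all libraries) and 3 between genotypes under AOO (0). DESeq2 called 3626 and 168 there, 354 in control AOO against control water (10), 6 between genotypes under water (0) and 196 in the interaction (0). Without the 2 hair shaft libraries the numbers were 1023 in knockout AOO against knockout water, 33 in control AOO against control water and 1 between genotypes under water. Leaving out 1 library gave 9 to 3141, 6 to 470, 0 to 51, 0 to 1 and 0 to 72 in knockout AOO against water, control AOO against water, genotypes under AOO, genotypes under water and the interaction. Scaling to equal totals moved the median of all genes by 0.12 in the first of these and split its calls into 1346 higher and 845 lower (1076 and 1067), with the same 3 members.

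Several estimates changed sign, some of them large, such as Cdh5 between genotypes under water (-2.61 with all libraries). Without the hair shaft libraries Kdr was at -0.048 and Tek at -0.054 in knockout AOO against knockout water, Tek at -0.053 between genotypes under AOO, and Plvap at 0.52 and Cdh5 at 0.030 in control AOO against control water. Leave-one-out ranges that crossed 0 were -0.050 to 0.16 for Kdr and -0.056 to 0.17 for Tek in knockout AOO against water, -0.77 to 0.52 for Plvap and -1.79 to 0.030 for Cdh5 in control AOO against water, and -0.10 to 0.38 for Tek between genotypes under AOO. Under water they were -1.12 to 0.28 for Pecam1, -0.46 to 0.62 for Esam, -2.19 to 0.35 for Plvap, -5.25 to 0.029 for Cdh5 and -1.07 to 0.046 for Eng. The causes were not tested.

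Same-numbered libraries of the 2 AOO groups correlated at 0.307, -0.105 and 0.131 in their deviations from the group means. Those of control water and knockout AOO correlated at 0.41 and 0.45, and those of the 2 knockout groups at 0.022 and 0.058. In a group of 2 libraries the deviations mirror each other, so these values are few and dependent. Whether the numbers pair samples was not settled. With the replicate number as a block, 58 genes were called in control AOO against control water, against 10 without the block. Kdr was then at -0.15 in knockout AOO against water, and the same 3 members were called. Kdr was not tested under the filter of 20 in at least 3 libraries. Kdr, with 4 to 28 reads a library, is the member most limited by depth.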
